A study of Mus musculus with 12 samples.

Results

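Transcripts of 10 genes of the primary cilium whose loss is tied to obesity were followed in the arcuate nucleus (ARC) of mice that carry a mutation in the energy sensor AMPK. The genes were picked by name and not by their values: Bbs1, Bbs2, Bbs4, Bbs5, Bbs7 and Bbs9, which encode subunits of the BBSome, together with Ift88, Adcy3, Alms1 and Tub. They are 10 of the 38283 genes quantified, each was above 0 in all 12 libraries, and all 10 were among the 14017 genes with a mean of at least 1 FPKM that were tested. FPKM scales the sequenced fragments of a gene to 1 kb of transcript and to a fixed library size.

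WT mice (n = 5) were compared with mice homozygous for the R299Q γ2 knock-in (Homo, n = 7), in which a point mutation was introduced into the endogenous Prkag2 gene, which encodes the γ2 subunit of AMPK. The mutation is present in every cell of the body, so a difference here need not have arisen within the ARC, and a point mutation leaves no trace in the expression level by which the labels could be checked. All mice were C57BL/6 males aged 8 weeks with free access to food. The ARC was cut from brain sections of 14 µm by laser, its RNA was amplified across the whole transcriptome, and 1 library was made per mouse.

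The primary cilium is a single, non-motile projection of the cell surface that most neurons carry. Its membrane holds selected G protein-coupled receptors, and material moves along its core on intraflagellar transport (IFT) trains, while the BBSome, a coat-like complex, carries membrane proteins and takes receptors out of the cilium. Loss of BBSome subunits causes Bardet-Biedl syndrome and loss of ALMS1 causes Alström syndrome, both of which include obesity in childhood, and mice without Tub or Adcy3 become obese. In the ARC, cilia of neurons that sense leptin and other signals of energy stores have been studied as one site where these genes act.

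The libraries were not alike in the number of genes above 0 or in estimated depth. In WT 1, WT 2 and Homo 1 to 5, between 15742 and 16467 genes were above 0, at about 0.128 to 0.293 FPKM per fragment on 1 kb. The other 5 libraries, WT 3 to 5 with Homo 6 and 7, had 18141 to 18635 genes above 0, at about 0.0810 to 0.120 FPKM per fragment. These 2 sets were found without reference to genotype, neither the labels nor the methods call them a batch, and each genotype difference was looked at inside them too. The sample titles word Homo 6 and 7 differently from Homo 1 to 5, and word all WT alike. Markers of ARC neurons were present in every library. The 10 ARC neuron markers added up to 1329 to 4651 FPKM (WT) and 3447 to 5238 FPKM (Homo). They include appetite-promoting peptide genes that the paper reports as raised in the ARC of R299Q mice, so their sum is not independent of genotype. WT 1 and WT 2 stood at 4620 and 4651 FPKM, and WT 3 to 5 at 1329, 2395 and 3239, below every Homo library. What this imbalance adds to the differences between genotypes or sets was not tested.

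RFX factors, which switch on many cilium genes, bind an X-box, here taken as the arms GTNNC and GNNAC with 4 bases between them, a form that reads the same on both strands. The half-site GTTGCCA was searched on either strand as well, and the 2 forms can overlap. In the 300 bases around the annotated starts (250 before and 50 after, from RefSeq on GRCm38.p6), 3 of the 11 promoters of the 10 genes held an X-box of this form, those of Bbs1, Bbs4 and Bbs7. That share is 27.3%, against 7.17% of all 32851 promoters. Either form was found in 4 of 11 promoters (36.4%), against 10.6% of all promoters, with Ift88 added through its half-site. The matched sequences of these 4 cilium genes are shown so that the 2 forms can be compared, the X-box of Bbs1, Bbs4 and Bbs7 and the half-site of Ift88, with the X-box or half-site in capitals, each read 5′ to 3′ on the strand of its gene. The Bbs7 X-box begins 121 bases upstream of the start (window chr3:36613457-36613550, minus strand). The Bbs1 promoter holds an X-box 89 bases upstream (chr19:4906663-4906756, minus strand) and another 1 base downstream of the start (chr19:4906605-4906634), which overlaps its half-site. Those of Bbs4 (chr9:59353464-59353493, minus strand) and Ift88 (chr14:57424083-57424105, plus strand) lie 23 and 20 bases downstream.
Bbs7: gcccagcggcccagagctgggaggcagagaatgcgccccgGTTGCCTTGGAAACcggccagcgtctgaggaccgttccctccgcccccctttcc
Bbs1, upstream: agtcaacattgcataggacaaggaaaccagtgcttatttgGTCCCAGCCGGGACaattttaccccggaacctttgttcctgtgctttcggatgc
Bbs1, at the start: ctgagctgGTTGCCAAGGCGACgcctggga
Bbs4: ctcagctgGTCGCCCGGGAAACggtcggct
Ift88: gtcgcgccTGGCAACggctgggc

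No match to these letters was found in the windows of Bbs2, Bbs5, Bbs9, Adcy3, Alms1 and Tub. Over all 7 lists of other cilium genes, either form was present in 25.4% of promoters (32 of 126). By list it was in 2 of 10 promoters of other BBSome and chaperonin genes, 44.4% for IFT genes (8 of 18), 22.2% for motors (2 of 9) and 44.8% for the transition zone and basal body (13 of 29). It was in 3 of 20 for Tubby relatives and membrane traffic genes, 3 of 23 for cyclic AMP genes and 1 of 17 for receptors.

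The transcripts differed widely in abundance in the ARC, and Bbs9 stood far above the rest. FPKM are per length, so the levels were set side by side. The order can depend on the transcript length assigned to each gene and on the strand of the counting, which is not given. Tub, for 1, shares exon sequence with Ric3 on the other strand, at a mean of 17.0 FPKM. Over the 12 libraries the mean was 55.9 FPKM for Bbs9, 17.8 for Tub, 17.7 for Bbs2, 12.8 for Bbs4, 10.7 for Bbs5, 7.68 for Ift88, 6.47 for Bbs7, 6.11 for Bbs1, 5.75 for Adcy3 and 1.54 for Alms1. Bbs9 was the highest of the 10 in all 12 libraries, between 1.91 and 3.93 times the next one, and Alms1 was the lowest in 11 of 12. Between neighbours in this order, the difference exceeded the spread between libraries only at the 2 ends. Bbs9 exceeded Tub by 1.58 ± 0.36 on the log2(FPKM + 1) scale (mean ± SD of the paired difference, n = 12, higher in 12 of 12), and Adcy3 exceeded Alms1 by 1.32 ± 0.69 (12 of 12). The 7 steps between neighbours from Tub down to Adcy3 were each smaller than their SD. Over all 45 pairs of members, 29 differed by more than the SD of their paired difference and 23 had the same order in every library. Tub lay above Bbs4 in 12 of 12 libraries (0.45 ± 0.36, SD) and also above Ift88, Bbs7, Bbs1 and Adcy3 in each of them, and Bbs4 lay above Bbs1 in 12 of 12 (0.95 ± 0.33). Among Ift88, Bbs7, Bbs1 and Adcy3 no pair differed by more than its SD, and Bbs5 differed by that much only from Bbs9 and Alms1. Against all genes tested, 91.4% lay below Bbs9, 73.5% below Tub and 8.45% below Alms1 in mean FPKM.

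Subunits of the BBSome are thought to assemble in equal numbers, and their transcripts were not equal. Bbs9, a core subunit on chromosome 9 (chr9:22475715-22888280 on GRCm38, plus strand), supplied between 37.0% and 65.2% of the summed FPKM of the 6 Bbs genes, with a median of 51.0%. Its mean was 9.16 times that of Bbs1 and 36.2 times that of Alms1. The share of Bbs2 ran from 4.04% to 26.9% and that of Bbs5 from 1.63% to 16.5%, so the make-up of the remainder changed from library to library. The sum itself had a median of 116 FPKM in WT (87.9 to 132) and of 104 in Homo (71.1 to 141), and the genotypes overlapped. Bbs9 has 12 annotated transcripts of 542 to 3495 bases, and an FPKM value depends on the length assigned to the gene.

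**Figure D1:**
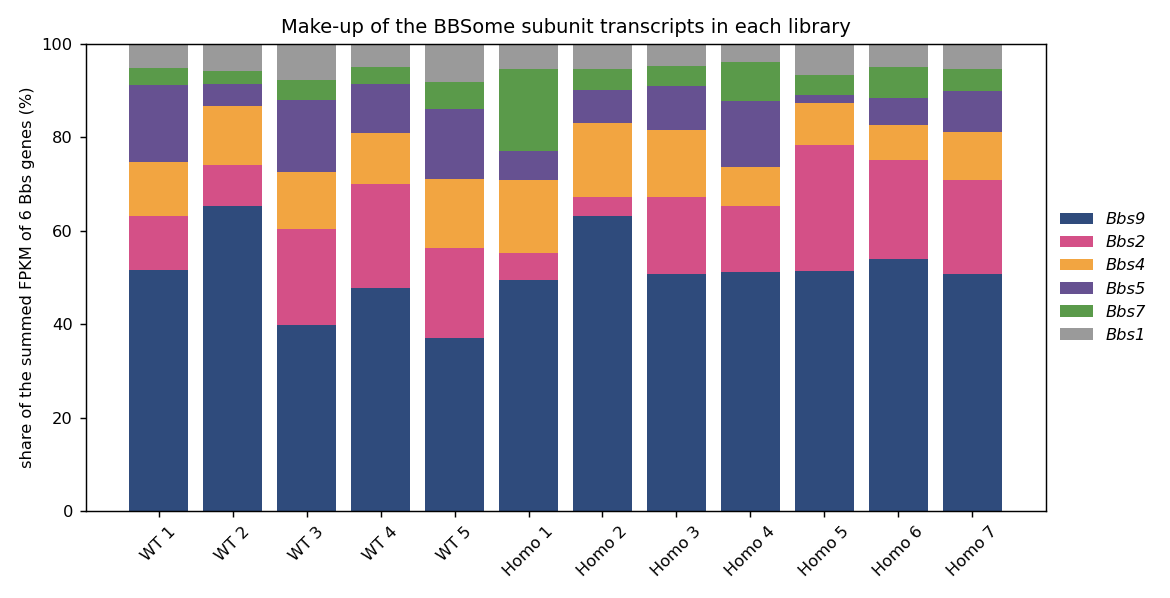
Share of each BBSome gene in the summed FPKM of 6 Bbs genes (y axis, percent) for each library (x axis, 5 WT and 7 Homo). The Bbs9 segment runs from 37.0% to 65.2%, and the Bbs2 segment from 4.04% to 26.9%.

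Between libraries the genes fell to either side of the usual spread for their level. For each gene the coefficient of variation (CV, the SD over the mean) over the 12 libraries was set beside that of tested genes with a mean within 1.25-fold. Tub (18.5%), Bbs4 (19.7%), Bbs1 (21.1%), Alms1 (23.5%) and Bbs9 (24.1%) varied less than the median gene of their level. Alms1 was the steadiest in this sense, since only 0.472% of 1270 genes of like level had a lower CV and their median was 75.4%. Genes were matched on FPKM and not on length, and at equal FPKM a longer transcript yields more fragments. The longest annotated transcript is 11163 bases for Alms1, the most of the 10, and 1468 for Bbs5, the fewest. The part of length in these CVs was not tested. The CV was 67.5% for Bbs7, 58.1% for Bbs5, 57.6% for Ift88, 46.7% for Adcy3 and 45.1% for Bbs2, above the median of like genes in each case. From the lowest library to the highest, Bbs5 spanned 13.1-fold, Bbs2 9.56-fold, Ift88 6.08-fold and Bbs7 5.67-fold, whereas Tub spanned 1.87-fold and Bbs4 1.85-fold. Estimated from the steps between low values, roughly 10 fragments stood behind Bbs5 in Homo 5, the fewest for any member, and 817 or more behind Bbs9 in every library. Those fragment numbers are approximate, since the isoform lengths behind each value are unknown.

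**Figure D2:**
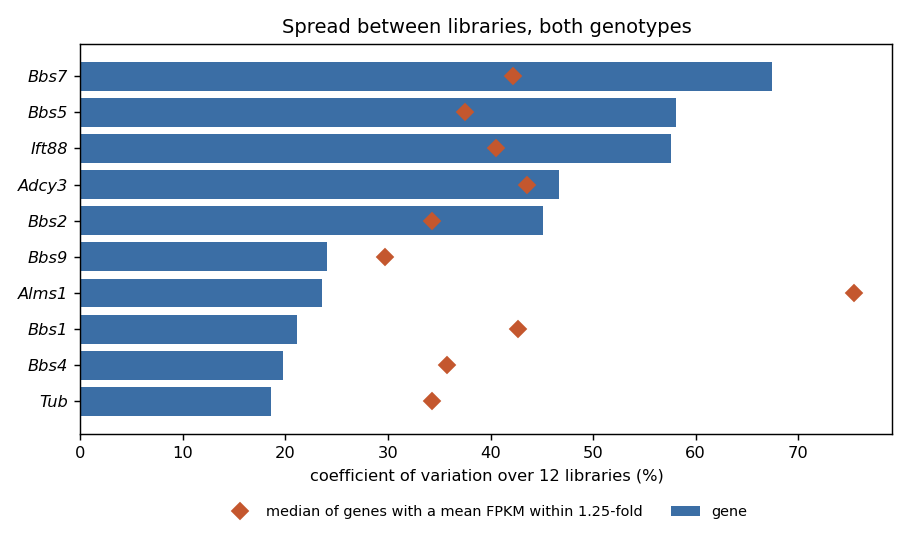
Coefficient of variation over the 12 libraries (x axis, percent, bars) for each cilium gene, with the median of tested genes whose mean FPKM lies within 1.25-fold (diamonds). Bbs7, Bbs5, Ift88, Adcy3 and Bbs2 exceed the diamond of their level, and the bar of Alms1, 23.5%, ends well short of its diamond at 75.4%.

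The question the design poses for these genes is whether the cilium transcripts of the ARC differ when γ2 AMPK is mutated. No member passed the test between Homo and WT. With limma on log2(FPKM + 1) and Benjamini-Hochberg adjustment over all genes tested, 0 of 10 had an adjusted p under 0.05 (0.00713% of all genes tested did, a single gene) and 0 of 10 had an unadjusted p under 0.05 (5.55% of all genes did). In no member did the genotypes separate without overlap, which 0.221% of all genes did. Of the 10 members, 5 were higher and 5 lower in Homo, and the median log2 fold change was -0.018, beside -0.0062 over all genes. In bulk tissue, fewer cells of a type and less RNA per cell cannot be told apart.

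**Figure D3:**
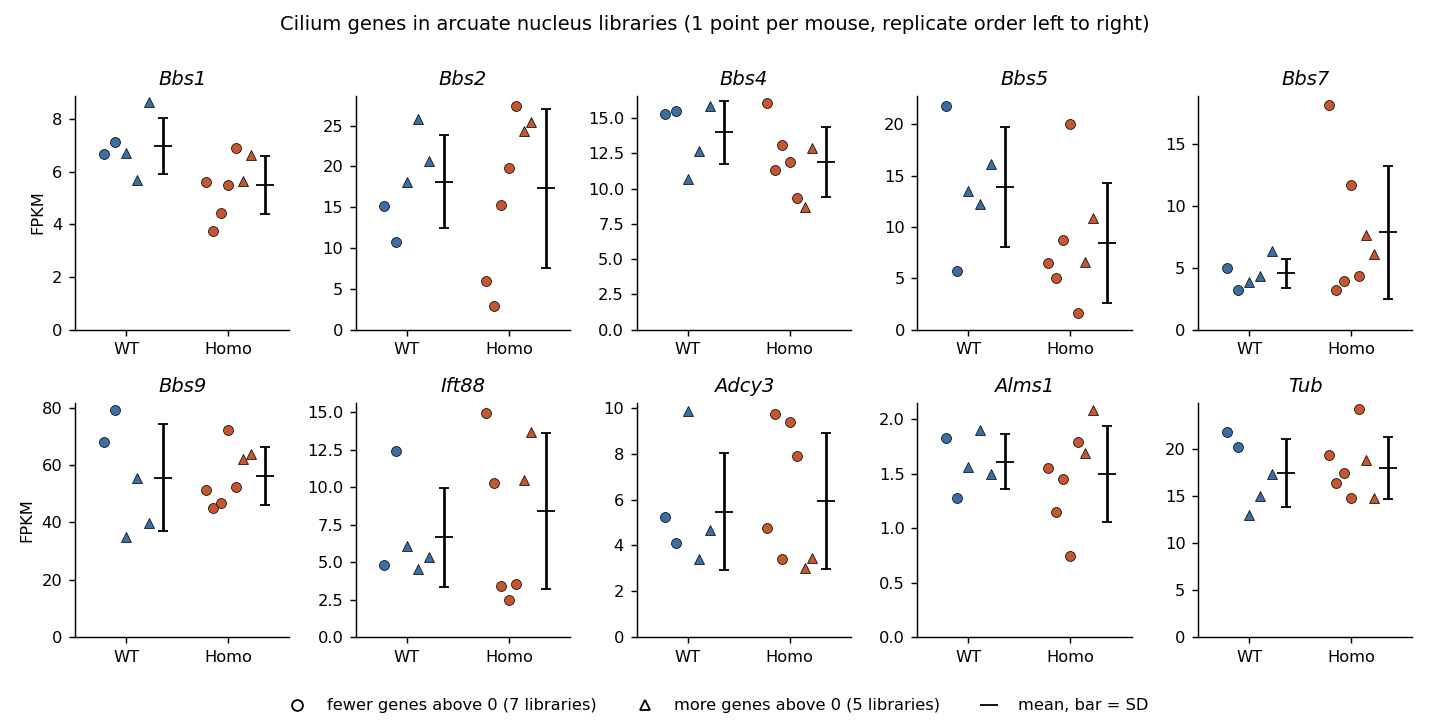
FPKM (y axes, from 0) of each cilium gene in 5 WT and 7 Homo mice, 1 point per mouse, with circles for the 7 libraries with fewer genes above 0, triangles for the 5 with more, and the mean ± SD beside each group. The genotypes overlap in every panel, and 5 of the 7 Homo points for Bbs1 lie under all WT points.

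Bbs1, which helps the BBSome bind its membrane anchor Arl6, was the member whose groups came nearest to separating. It measured 6.65, 7.12, 6.72, 5.70 and 8.65 FPKM in WT 1 to 5. In Homo it ran from 3.76 through a median of 5.61 to 6.88 FPKM. Thus 5 of 7 Homo values lay under every WT value, while Homo 5 and Homo 7 lay among them. The means were 6.97 ± 1.07 (SD, n = 5) and 5.49 ± 1.11 (SD, n = 7), a log2 fold change of -0.30 (SE 0.19, 95% interval -0.72 to 0.11, limma adjusted p = 0.915). The exact two-sided permutation test over 792 arrangements gave p = 0.0556, and permutation within the library sets gave exact p = 0.0810.

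Bbs5, a subunit with lipid-binding domains, showed the largest fitted difference of the 10. WT 1 to 5 measured 21.8, 5.75, 13.5, 12.2 and 16.2 FPKM. Homo libraries ran from 1.66 through a median of 6.56 to 20.01 FPKM. The groups overlapped across nearly their whole range, since WT 2 was among the low values and Homo 4 among the high ones. The means were 13.9 ± 5.85 in WT and 8.48 ± 5.85 in Homo (SD), a log2 fold change of -0.78 (SE 0.43, 95% interval -1.69 to 0.13, limma adjusted p = 0.906; exact permutation p = 0.139). Bbs5 passed an unadjusted p of 0.05 when WT 2 or Homo 4 was left out, with a log2 fold change of -1.04 without WT 2, and passed no adjusted threshold. In these 2 fits 824 and 716 of 14017 genes passed the unadjusted threshold.

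Bbs7 was higher in Homo on average, and the difference rested on few mice. WT 1 to 5 measured 4.99, 3.19, 3.83, 4.31 and 6.32 FPKM. Homo 1 and Homo 4 stood out at 18.1 and 11.6 FPKM, and the Homo median was 6.07. The log2 fold change was 0.51 (SE 0.35, 95% interval -0.24 to 1.26, limma adjusted p = 0.915; exact permutation p = 0.217), and it was 0.29 without Homo 1. Bbs4, which links the complex to satellites of the centrosome, measured 15.3, 15.5, 10.7, 12.7 and 15.8 FPKM in WT, and from 8.70 through a median of 11.9 to 16.1 in Homo. Its means of 14.0 ± 2.22 and 11.9 ± 2.49 (SD) differed by -0.23 on the log2 scale (SE 0.19, exact permutation p = 0.168). Bbs4 shares exon sequence with Adpgk on the other strand, at a mean of 3.30 FPKM, and the strand of the counting is not given.

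Bbs2 ranged widely among the Homo mice. It measured 15.2, 10.7, 18.1, 25.8 and 20.7 FPKM in WT 1 to 5, against 6.00 and 2.87 FPKM in Homo 1 and Homo 2 and 27.5 FPKM in Homo 5. The means of 18.1 ± 5.68 and 17.3 ± 9.71 (SD) gave a log2 fold change of -0.29 with a 95% interval of -1.28 to 0.70 (exact permutation p = 0.598), which does not bound a change in either direction closely. With the library set in the model it was -0.0035, and without Homo 2 it was 0.036. Bbs2 also had the largest difference between library sets among the members, 0.91 higher in the set with more genes above 0 (limma adjusted p = 0.607, where 0.178% of all genes were called for the set).

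Bbs9 had almost equal means of 55.5 ± 18.7 in WT and 56.2 ± 10.01 in Homo (SD). The log2 fold change was 0.065 (SE 0.22, 95% interval -0.40 to 0.53, exact permutation p = 0.764). Within the library sets the difference took opposite directions. In the set with fewer genes above 0, WT 1 and WT 2 stood at 68.1 and 79.3 FPKM and the Homo mean was 53.6, a log2 fold change of -0.47. In the other set WT 3 to 5 stood at 35.0, 55.4 and 39.7 FPKM and Homo 6 and Homo 7 at 61.9 and 63.7, a log2 fold change of 0.55. The gap between these 2 differences was 1.02 with an unadjusted limma p of 0.0160 and an adjusted p of 0.876, and 0.0428% of all genes had an adjusted p under 0.05 for it. Over all genes tested the median gap was 0.27. WT 2 and WT 3, which hold the highest and lowest Bbs9 values, lie in different sets. They also had the highest and lowest WT sums of ARC neuron markers, 4651 and 1329 FPKM, though WT 1 was close to WT 2 at 4620 FPKM. What these sums add to the Bbs9 values was not tested.

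Ift88, a core part of the IFT-B train without which cilia do not form, also took opposite directions in the library sets. WT 1 to 5 measured 4.83, 12.4, 6.09, 4.53 and 5.38 FPKM. The Homo libraries split into 14.99, 10.3, 10.5 and 13.7 FPKM in Homo 1, 2, 6 and 7 and 3.42, 2.47 and 3.52 in Homo 3, 4 and 5. The log2 fold change was 0.15 (SE 0.41, 95% interval -0.74 to 1.04, exact permutation p = 0.732) over all libraries. It was -0.42 in the set with fewer genes above 0 and 1.04 in the set with more. The gap was 1.47, beside a median of 0.27 over all genes tested, with a limma adjusted p of 0.876. An antisense transcript, Ift88os, overlaps its exons at a mean of 0.352 FPKM.

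Adcy3, the adenylyl cyclase of neuronal cilia, measured 5.26, 4.10, 9.85, 3.42 and 4.67 FPKM in WT and from 3.01 through a median of 4.76 to 9.74 in Homo. WT 3, Homo 2, Homo 4 and Homo 5 formed a high group at 7.89 FPKM or more, of both genotypes. The log2 fold change was 0.066 (95% interval -0.62 to 0.76, exact permutation p = 0.851), and it was 0.43 and -0.62 in the sets with fewer and more genes above 0. Exons of Cenpo, at a mean of 4.64 FPKM, lie opposite those of Adcy3, a level near that of Adcy3 itself.

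Alms1, a protein of the centrosome and cilium base, and Tub, which brings receptors into the cilium, had similar means in both genotypes. Alms1 measured 1.83, 1.27, 1.56, 1.90 and 1.495 FPKM in WT and from 0.748 (Homo 4) through 1.56 to 2.08 in Homo, with means of 1.61 ± 0.255 and 1.496 ± 0.438 (SD, exact permutation p = 0.587). Tub measured 21.8, 20.2, 12.97, 14.99 and 17.3 FPKM in WT and from 14.8 through 17.4 to 24.3 in Homo, with means of 17.5 ± 3.64 and 18.0 ± 3.31 (SD, exact permutation p = 0.763). The 95% interval of the log2 fold change was -0.35 to 0.44 for Tub and -0.59 to 0.43 for Alms1. Exons of Ric3, at a mean of 17.0 FPKM, lie opposite those of Tub.

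**Figure D4:**
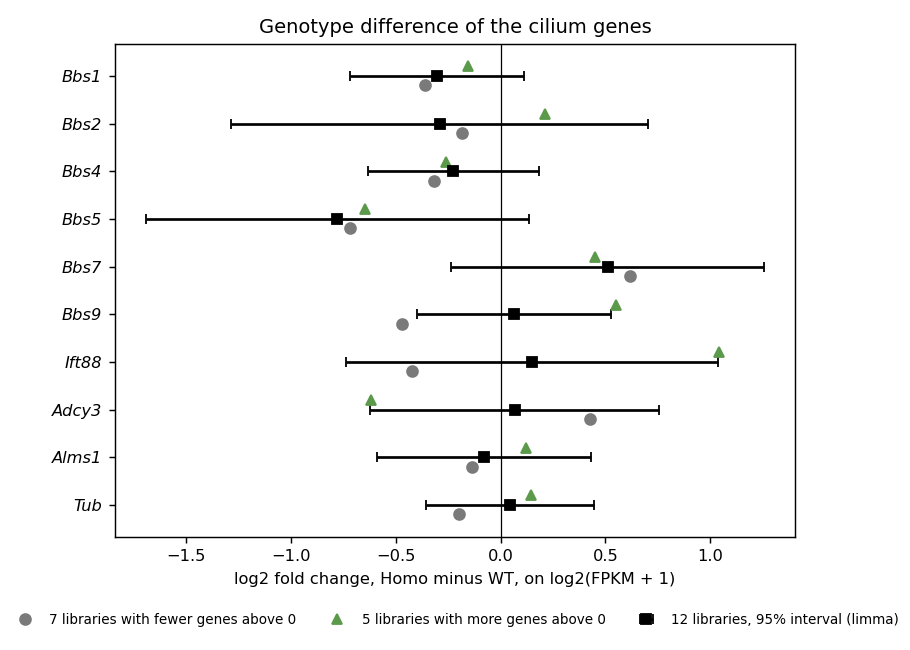
Log2 fold change of each cilium gene, Homo minus WT, on log2(FPKM + 1) (x axis), with squares and 95% intervals from limma over 12 libraries, circles for the 7 libraries with fewer genes above 0 and triangles for the 5 with more. Every interval includes 0, and Bbs9, Ift88 and Adcy3 have circle and triangle far apart on opposite sides of 0.

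Pairs of members had positive and negative correlations in similar number, with a median near 0. Over 12 libraries of both genotypes, the 45 pairs of members had a median Pearson r of 0.039 on the log2 scale, from -0.53 (Adcy3 with Alms1) to 0.56 (Bbs1 with Bbs2), beside a median of 0.063 over 982101 pairs of tested genes taken at a fixed interval down the table. Of the 45 pairs 25 were positive (55.6%), beside 57.0% of those pairs of tested genes. Among the 15 pairs of BBSome genes 13 were positive (86.7%), with a median of 0.17. Bbs4 and Bbs2 were the most opposed pair of subunits, at -0.30. Among the genes with an X-box, r was 0.27 for Bbs1 with Bbs4, 0.18 for Bbs4 with Bbs7 and 0.039 for Bbs1 with Bbs7. With the mean of each library set removed, other pairs stood at the ends. The highest r was then 0.63 (Alms1 with Tub, 0.21 before) and the lowest -0.64 (Bbs2 with Ift88, -0.45 before). Bbs1 with Bbs2 stood at 0.46 and Adcy3 with Alms1 at -0.45. All points share a library, its depth and its dissection, and these values are descriptions.

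The gene with the most similar profile over the 12 libraries was Vdac3 for Bbs2 (r = 0.94), AC107641.1 for Bbs1 (0.93), 8430419L09Rik for Tub (0.93), Fip1l1 for Bbs7 (0.92), Tmem147 for Bbs9 (0.91), Fgfrl1 for Ift88 (0.90), Por for Bbs5 (0.89), Il11ra1 for Alms1 (0.89), Tnpo3 for Adcy3 (0.86) and Sf3a3 for Bbs4 (0.83). For the mean of the 6 Bbs genes they were Uggt2 (0.91), Iqsec2 (0.90) and C330007P06Rik (0.89). These are the highest of 14017 genes over few libraries, and none of them was on the cilium lists examined here.

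Levels of other cell types were set beside the members, since the cut can include ependymal cells with motile cilia, tanycytes and glia. Over the 12 libraries, the correlations of a member with the mean log2 level of a marker list that were furthest from 0 were those of ARC neurons with Tub (r = 0.77) and Bbs9 (0.70), astrocytes with Bbs7 (0.65), microglia with Bbs4 (-0.60), endothelial cells with Bbs2 (-0.59) and astrocytes with Ift88 (0.58). They were picked as the extremes among all members and all lists, over few libraries. What share of all genes tested has such an r with these lists was not counted. Motile cilium genes of ependymal cells, which use the same IFT machinery, had r between -0.46 (Bbs2) and 0.47 (Ift88). Their summed level over the 17 genes found, of 23 listed, was 85.4 to 153 FPKM for WT and 112 to 179 for Homo. The medians were 136 and 137. Means over the 12 libraries were 78.8 FPKM for Fam183b and 14.7 for Rsph1, the 2 highest, so the sum rested largely on Fam183b. Of the genes found, 11 had a mean of at least 1 FPKM. Tanycyte markers summed to 46.2 to 200 FPKM in WT and 35.3 to 91.3 in Homo, and microglia markers to 63.7 to 114 and 87.4 to 159. Several lists leaned one way between genotypes, and others leaned little. In Homo, 8 of 10 ARC neuron markers were higher in sign (median log2 fold change 0.42, 2 at an unadjusted p under 0.05), as were 8 of 8 microglia markers (0.38, 2), 8 of 8 oligodendrocyte markers (0.37, 0), 7 of 9 astrocyte markers (0.20, 0), 8 of 12 general neuron markers (0.042, 1), 7 of 11 motile cilium genes (0.064, 0) and 4 of 7 endothelial markers (0.15, 0), while 1 of 9 tanycyte markers was higher (-0.34, 2 lower at an unadjusted p under 0.05). Over all genes tested, 6912 of 14017 were higher in sign and 5.55% had an unadjusted p under 0.05. Markers of a cell type share the dissection, so they are not separate observations. The ARC neuron list also holds the peptide genes that the paper reports as raised by the mutation, so its lean is not a measure of cell make-up alone. No marker of any list was at 0 in all libraries, no marker had an adjusted p under 0.05, and the part of cell make-up in the members' values was not tested.

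Around the 10 genes, 99 further genes of cilium assembly and signalling were tested, in 7 lists chosen by function. None had an adjusted p under 0.05. At an unadjusted p under 0.05, 428 of all 14017 genes tested were higher and 350 lower in Homo. Of the 99 genes, 6 were higher and 1 lower at that threshold, 7 of 99 beside 5.55% of all genes. In sign alone, 48 were higher and 51 lower. The counts were 3 of 21 higher among other IFT genes (median log2 fold change 0.10), 1 of 10 higher among kinesin-2 and dynein-2 motor genes (0.083), 1 higher and 1 lower of 25 at the transition zone and basal body (-0.0047) and 1 of 10 higher among Tubby relatives and membrane traffic genes (0.024). They were 0 of 9 among other BBSome and chaperonin genes (-0.023), 0 of 12 among adenylyl cyclases and cyclic AMP partners (-0.040) and 0 of 12 among receptors of neuronal cilia (-0.094).

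The IFT genes with the smallest p were the partners Ift27 and Hspb11 (Ift25), which form a dimer on the IFT-B train that is needed for the BBSome to leave the cilium. Ift27 lay between 2.28 and 6.47 FPKM in WT, and went from 5.01 through 11.4 to 12.6 in Homo, and 6 of 7 Homo values lay above every WT value. The means were 4.42 ± 1.72 and 9.96 ± 2.66 (SD), a log2 fold change of 1.03 (SE 0.27, limma unadjusted p = 0.0016, adjusted p = 0.666). The fold change stayed between 0.87 and 1.19 on the log2 scale over 26 fits, with an unadjusted p under 0.05 in each and no adjusted p under 0.427. Ift27 was named by its p in these libraries and the fits share them, so the fits are not separate support. What share of all genes has so many Homo values beyond every WT value was not counted for any gene here. Hspb11 averaged 11.4 ± 4.08 in WT and 24.6 ± 13.2 in Homo (SD, log2 fold change 0.95, limma unadjusted p = 0.0218, adjusted p = 0.856). Its log2 fold change was 0.94 in the set with fewer genes above 0 and 0.34 in the set with more. Ttc30b, another IFT-B component, had a log2 fold change of 0.59 at 1.24 and 2.52 FPKM (limma unadjusted p = 0.0494, adjusted p = 0.899). For Ttc30b the unadjusted p was under 0.05 in 10 of 25 fits. Its log2 fold change was 0.87 in the set with fewer genes above 0 and 0.15 in the set with more.

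Among the other lists, Tctex1d2, a light chain of the dynein-2 motor, averaged 12.8 ± 3.05 in WT and 22.7 ± 6.58 in Homo (SD), with 6 of 7 Homo above all WT (log2 fold change 0.75, limma unadjusted p = 0.00878). Rp2h, which helps deliver lipidated proteins to the cilium, averaged 3.48 and 7.35 FPKM (0.88, limma unadjusted p = 0.0171, adjusted p = 0.854). Cep164, needed to dock the basal body, averaged 1.79 and 0.710 FPKM (-0.75), with 5 of 7 Homo below all WT. For Cep164 the limma unadjusted p was 0.0465 and the adjusted p 0.899, and the unadjusted p was under 0.05 in 12 of 25 fits. Its log2 fold change was -0.96 in the set with fewer genes above 0 and -0.25 in the set with more. Arl6, the membrane anchor of the BBSome, averaged 16.0 ± 6.48 and 19.2 ± 5.42 (SD; 0.28, limma unadjusted p = 0.312). Pde4b, a cyclic AMP phosphodiesterase (-0.43), and Mchr1, the melanin-concentrating hormone receptor that resides in cilia (0.62), had the smallest p of their lists and did not pass the unadjusted threshold.

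**Figure D5:**
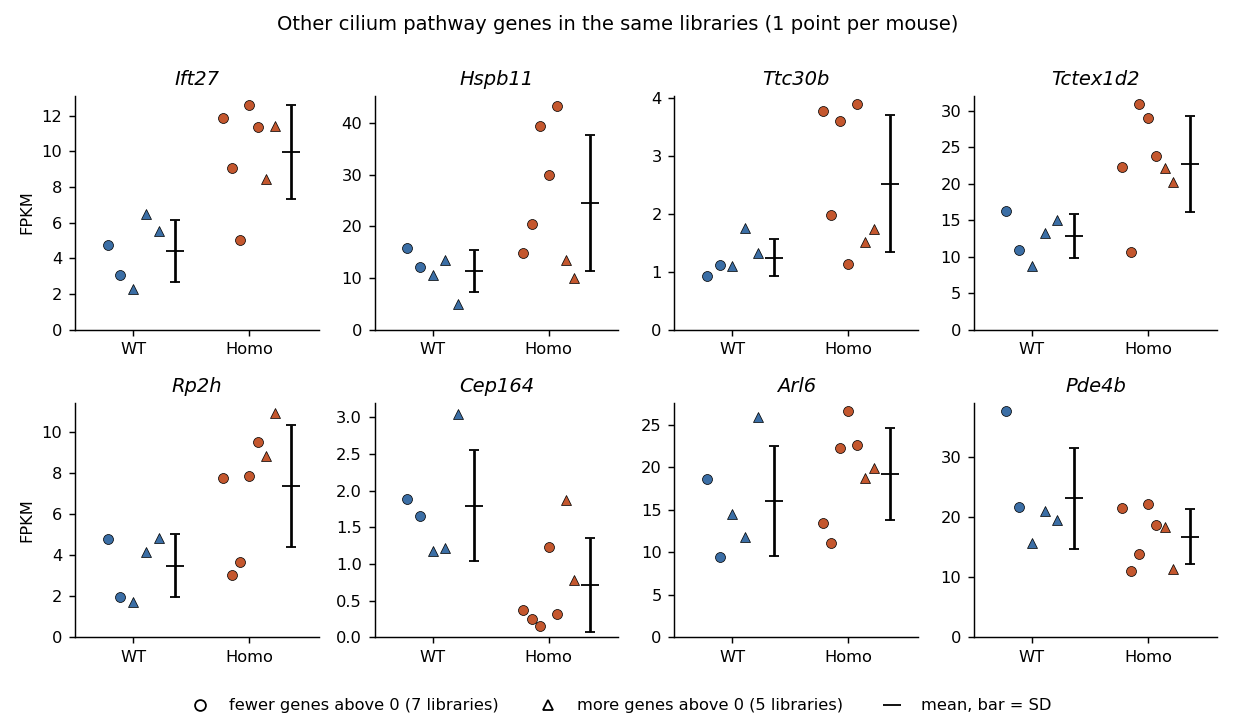
FPKM (y axes, from 0) of 8 other cilium genes, each among the smallest p of its list, in 5 WT and 7 Homo mice, 1 point per mouse, circles and triangles as the library sets with fewer and more genes above 0, with the mean ± SD beside each group. In Ift27 and Tctex1d2 6 of 7 Homo points lie above all WT points, in Arl6 the groups overlap, and no gene shown has an adjusted p under 0.05.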

How the data were processed

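RNA of laser-captured ARC from 5 WT and 7 Homo mice was measured, with 1 library per mouse. The authors deposited 1 table of FPKM per gene and library. The submitters' processing notes name TopHat2 2.0.8, Cufflinks 2.2.1 and GRCm38; the strand setting and any scaling beyond FPKM are not given in the sources used here. All 12 columns were matched by label (2 Homo columns with an extra letter by genotype and number), and 0 were left over. Depth is not given by FPKM, and relative depth was estimated from the steps between low values, taking 180 bases off the transcript length, so no counting intervals are given.

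FPKM are not counts. Values were taken as log2(FPKM + 1), genes with a mean of at least 1 FPKM were fitted in R 4.3.3 by limma 3.58.1 with genotype alone (lmFit, and eBayes with a variance trend and robust settings), and p-values were adjusted by Benjamini-Hochberg over 14017 genes; fold changes of low genes are understated on this scale. Each member was also tested by exact two-sided permutation of 792 arrangements of the libraries (smallest p 0.0013) and of 210 within the library sets (smallest p 0.0048). P-values measure the spread between these mice. The fit was tested on simulated data. The members, lists, library sets and design were chosen with earlier results of these data known. Named genes are the members, the nearest gene to each over the libraries (3 for the mean of the Bbs genes), up to 3 genes per list with the smallest unadjusted p under 0.05 or else the 1 with the smallest p, and the 2 highest motile cilium genes; 1 gene that met this rule is not reported here. Of 117 listed genes 115 were found in the table, and the others were not analysed here. Gene positions (GRCm38) were read from release 21 of the GENCODE mouse annotation, in which 97.5% of the tested identifiers were found. Correlations between libraries (Spearman, across genes) lay between 0.762 and 0.854, and 0 pairs were identical.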

Additional observations from a re-analysis of the deposited data

Results flagged for a closer look

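One value of the cilium genes stood apart from its group. Ift88 was at 12.4 FPKM in WT 2, and the gap to the next WT value took up 0.720 of the range of the 5 WT libraries, above the limit used for a single distant sample. Chance flags about 1 in 20 groups, and 20 groups were looked at (10 genes in 2 genotypes). Without WT 2 the log2 fold change of Ift88 was 0.37 in place of 0.15.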

How the results depend on the processing

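No member reached an adjusted p under 0.05 in limma under any of 25 alternatives, and Bbs1, Bbs4, Bbs5 and Bbs7 kept their direction in all of them. The number of genes called among all tested was 1; it was 6 in the library set with fewer genes above 0, 19 in the set with more, 4 with Homo 1 to 5 only and 1 to 3 with 1 library left out (3 without WT 2, 2 without Homo 4). Replicate numbers did not pair the mice: 0 of 5 same-number pairs had correlated deviations over 0.1 and 0 correlated best with its own number. In the replicate block fit Homo 6 and Homo 7 have no partner and do not enter the genotype difference, so its fold changes are those of Homo 1 to 5 against WT; with the block 2 genes were called. The number of members with an unadjusted p under 0.05 was 0. It was 1 in the set with more genes above 0 (Ift88), where 710 of 14017 genes had such a p. With 1 library left out it was 0 to 1 (Bbs5, without WT 2 or Homo 4). In those 2 fits 824 and 716 of 14017 genes had such a p. The members' median log2 fold change was -0.26 in the set with fewer genes above 0 (-0.081 over all genes), 0.13 in the set with more (0.13 over all genes), -0.15 with Homo 1 to 5 only, with or without the block (-0.043 over all genes), and -0.084 to 0.011 with 1 library left out. Within the library sets, Bbs1 passed 0.05 (exact permutation p = 0.0476) after quantile normalization and after upper-quartile scaling, 1 member in each. This permutation was run on the 10 members only, so the share of all genes that would pass it is not known. The pathway lists had 5 to 8 genes at an unadjusted p under 0.05 with 1 library left out. Of 10 places in the order of mean levels, 8 held in the Homo libraries (an alternative chosen after seeing the data), 8 in the set with fewer genes above 0, 6 in the set with more and 4 in WT only. The direction turned for Bbs9 (-0.0042), Adcy3 (-0.049) and Tub (-0.041) with the library set in the model; for Bbs9 (-0.47), Ift88 (-0.42), Tub (-0.20) and Mchr1 (-0.082) in the set with fewer genes; for Bbs2 (0.21), Adcy3 (-0.62) and Alms1 (0.12) in the set with more; and for Bbs9 (-0.0060) and Ift88 (-0.13) with Homo 1 to 5 only, with or without the replicate block. Leaving out 1 library turned Bbs9 (lowest -0.081, highest 0.21), Tub (-0.050 to 0.13), Adcy3 (-0.057 to 0.27), Ift88 (-0.018 to 0.37), Bbs2 (-0.45 to 0.036) and Alms1 (-0.13 to 0.0018). The cause was not tested. Alms1 did not pass a filter of 5 FPKM and has no value there.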
